A study of Caenorhabditis elegans with 6 samples.

Results

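Neuropeptides are short signalling peptides that neurons cut from larger precursor proteins, pack into dense-core vesicles and release to act on receptors of other cells. In C. elegans the genes named nlp- encode neuropeptide-like protein precursors, a class set apart from the FMRFamide-like and the insulin-like peptides. Convertases cut such precursors at pairs of basic residues, and many of the peptides are then amidated. The genes named npr- encode the neuropeptide receptor family, G-protein coupled receptors that sit in the membrane of the receiving cell. Through these signals nematode neurons modulate feeding, locomotion, arousal and egg laying. For the members described here the sources used give the class and the sequence name, and no further role is stated for any single one.

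The members were all genes whose current symbol begins with nlp- or npr-, found through the gene identifier of each probe. They were 25 neuropeptide-like protein genes and 10 receptor genes, 35 of the 7477 named genes and of the 22321 features in the table. A feature is a named gene, with its probes averaged, or an unnamed probe on its own. Each of the 35 members had 1 probe, and all 35 had a value on all 6 arrays, so none was lost to a missing value. The gene table holds 78 nlp- symbols and 45 npr- symbols. The members run from nlp-43 to nlp-101 and from npr-36 to npr-45. The remaining symbols of both families have no named probe in the annotation used. At least some of them are on the array. The study names nlp-8, nlp-20 and npr-2 among genes that it found lower in cells with 128 than with 19 glutamines. It also describes a module of neuropeptide genes among those lowered. The remaining symbols could not be matched to a probe here and were not analysed, so these 35 are not all the members that the array measures.

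Touch receptor cells, the neurons with which the nematode senses light touch, were compared on 2-colour arrays, each of which gives 1 log ratio per probe. In the first comparison RNA of cells with an N-terminal huntingtin fragment of 128 glutamines fused to GFP (128Q) was set against RNA of cells with 19 glutamines (19Q), on 3 arrays. The second comparison paired RNA of 19Q cells with RNA of GFP-only cells, again on 3 arrays. All of these cells carried a transgene under the mec-3 promoter, came from integrated strains, were dissociated from embryos, kept in culture overnight and sorted by GFP. The mec-3 promoter is also active in a few other mechanosensory neurons. The label was not checked against expression, since 0 of the 11 touch receptor markers looked up, mec-4 and mec-7 among them, have a named probe in the annotation used. The same holds for the whole list of 47 cell type markers, of which 0 are named. Whether such markers differed between the groups along with the genes described here was therefore not tested. The study itself lists some of the 47 as lower in 128Q than in 19Q cells. Among them are mec-7, mec-12, mec-17, mec-18 and mtd-1 of touch receptor neurons. Also listed as lower are des-2 of other mec-3 neurons, myo-2 of muscle, and elt-2 and act-5 of intestine. The arrays are centred near 0, so values above 0 mean more RNA in the first-named cells relative to the average of the array. This direction rests on the dyes and the order of names in the sample labels. The log base of the deposited values is not given, so they are stated in deposited units and never as folds. In such bulk samples, fewer cells of a type and less RNA per cell cannot be told apart.

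The arrays had SDs over probes of 0.783 to 1.0 and medians of 0.009 to 0.143. Across features, which are not independent replicates, the 3 arrays of 128Q over 19Q correlated with r between 0.538 and 0.677. Replicates 1 and 2 of 19Q over GFP only correlated with r = 0.744, but replicate 3 stood apart, with r = 0.113 and 0.01. Without 246 evenly spaced unnamed probes of very low values these became 0.528, 0.21 and 0.0431. Those of 128Q over 19Q became 0.681, 0.763 and 0.681. The probes left out were picked by values below -4 on replicate 1 of 128Q over 19Q. Members of the second comparison whose mean its replicate 3 moves strongly are given without that array as well. Precision is limited by having 3 arrays for each comparison, and how far the spots stood above background is unknown. Nothing in the sources used here says that the arrays came from separate cultures, beyond the statement of independent experiments, so the p values measure the spread between these arrays. The main test estimates that spread for each feature over both comparisons together. The SD given beside a mean covers 1 comparison and is not the spread that was tested.

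In 128Q cells the neuropeptide-like protein genes lay low on the arrays. Of 25 ligand genes 23 had a mean log ratio below 0 and 2 above 0, against 45.6% and 54.4% of all features. On all 3 arrays 19 were below 0 and 1, nlp-68, was above 0, against 25.7% and 30.9% of all features. The median of their mean log ratios was -0.93, with a range from -1.83 to 1.28, against a median of 0.05 over all features. The 10 receptor genes had a median of -0.15, with a range from -2.03 to 2.08, and 6 of them had a mean below 0. Ligands and receptors are set beside each other here as counts, and their difference was not tested.

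Each ratio was tested against 0 with limma over all features, and a gene was called at an adjusted p under 0.01, the threshold of the study. The study used another test. Its calls include nlp-79 and npr-41 under their sequence names, and also nlp-56, nlp-61 and nlp-69, which the limma test did not call. With limma 1 ligand gene fell in 128Q cells relative to 19Q cells and 0 rose, against 1.17% and 1.63% of all features. Among receptor genes 1 fell and 1 rose, and over both directions 2.8% of all features were called. At the wider threshold of 0.05, 8 ligand genes were lower and 1 was higher, against 5.58% and 4.92% of all features, and the receptors were the same genes, npr-41 and npr-39. At an unadjusted p under 0.05, 15 ligand genes were lower and 1 was higher, against 13.1% and 11.9% of all features. The remaining 9 ligand genes did not reach that level.

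**Figure D1:**
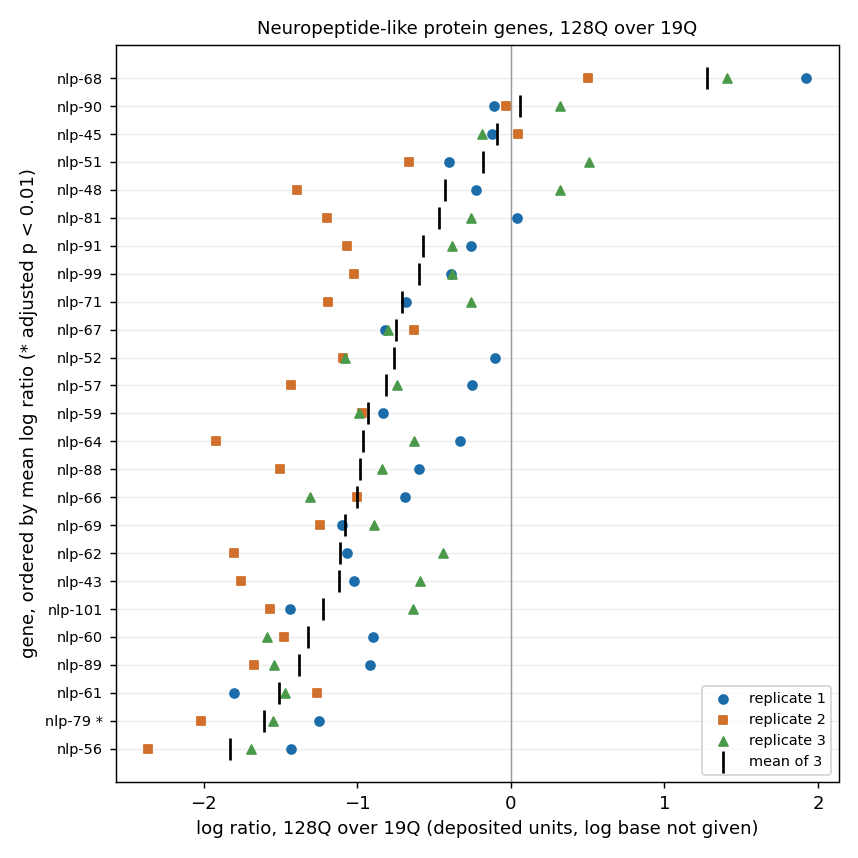
Log ratio of 128Q over 19Q (x axis, deposited units) of each of the 25 neuropeptide-like protein genes (rows, ordered by mean), with a symbol for each of the 3 arrays and a bar for their mean. The means run from -1.83 for nlp-56 to 1.28 for nlp-68, 23 of 25 lie below 0, and the asterisk marks nlp-79, the ligand gene called at an adjusted p under 0.01.

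The ligand gene that fell was nlp-79 (F09E8.8). Its log ratios of 128Q over 19Q were -1.25, -2.02 and -1.55 in replicates 1 to 3. All 3 arrays were well below 0, and each placed the gene among the lowest features, at percentiles 6.07, 1.14 and 3.57. The mean was -1.61 ± 0.39 (SD, n = 3, adjusted p = 0.00731 from limma). The call was lost without any one of 5 of the 6 arrays, with an adjusted p from limma of up to 0.0578, and held without replicate 3 of 19Q over GFP only (adjusted p = 0.00432). It was also lost in a separate fit of each comparison (adjusted p = 0.0145).

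A second gene, nlp-56 (Y57G11C.45), was lower still but missed the threshold of 0.01. Its log ratios were -1.43, -2.36 and -1.69, and its mean of -1.83 ± 0.48 (SD, n = 3, adjusted p = 0.0123 from limma) was the lowest of the 25 ligand genes. It ranked at percentile 1.22 of all feature means and nlp-79 at 2.43. The 95% interval from limma was -2.52 to -1.14 for nlp-56 and -2.13 to -1.09 for nlp-79. For nlp-61 (F26A10.1) the values were -1.80, -1.26 and -1.47, with a mean of -1.51 ± 0.27 (SD, n = 3, adjusted p = 0.0117 from limma). For this gene replicate 1, not replicate 2, was the lowest array. The values of nlp-56, nlp-79 and nlp-61 overlap, so their order is not resolved.

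Next in order came nlp-89 and nlp-60. For nlp-89 (C35B1.7) the log ratios were -0.92, -1.67 and -1.54, with a mean of -1.38 ± 0.41 (SD, n = 3, adjusted p = 0.0375 from limma). For nlp-60 (F08B4.4) they were -0.90, -1.48 and -1.59, with a mean of -1.32 ± 0.37 (SD, n = 3, adjusted p = 0.0148 from limma). Both genes had replicate 1 nearest to 0, and replicates 2 and 3 close to each other. The values of nlp-101 (C54D2.2) were -1.44, -1.57 and -0.64, a mean of -1.22 ± 0.50 (SD, n = 3, adjusted p = 0.0204 from limma). Here replicate 3 was the array nearest to 0.

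The smallest spread among the 8 lower ligand genes was that of nlp-69 (Y113G7A.15), at -1.10, -1.24 and -0.89. Its mean was -1.08 ± 0.17 (SD, n = 3, adjusted p = 0.0213 from limma). On the 3 arrays nlp-88 (M04B2.6) had -0.60, -1.50 and -0.84, with a mean of -0.98 ± 0.47 (SD, n = 3, adjusted p = 0.0433 from limma). With these genes, the 8 ligand genes that were lower at an adjusted p under 0.05 had means between -1.83 and -0.98, and each was below 0 on all 3 arrays.

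A further 11 ligand genes were below 0 on all 3 arrays without reaching an adjusted p of 0.05. Their means lay between -1.12 (nlp-43) and -0.57 (nlp-91), with adjusted p values from limma of 0.0512 to 0.569. The lowest of these p values belonged to nlp-59, whose arrays agreed most closely of all ligand genes, at -0.83, -0.97 and -0.99, with a mean of -0.93 ± 0.09 (SD, n = 3). Close behind it was nlp-67, with -0.82, -0.63 and -0.80 and a mean of -0.75 ± 0.10 (SD, n = 3, adjusted p = 0.0646 from limma). Values of these 4 genes are given because of what they showed. The 7 others are nlp-52, nlp-57, nlp-62, nlp-64, nlp-66, nlp-71 and nlp-99. In nlp-64 the arrays ranged most widely of the named 7, at -0.33, -1.92 and -0.63, with a mean of -0.96 ± 0.85 (SD, n = 3, adjusted p = 0.128 from limma), a gene likewise singled out for its values.

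The ligand genes at the upper end held 1 gene well above 0 and several near 0. The highest was nlp-68 (T21C12.3), with log ratios of 1.92, 0.50 and 1.41 and a mean of 1.28 ± 0.72 (SD, n = 3, adjusted p = 0.0327 from limma). It was above 0 on all 3 arrays and at percentiles 97.8, 82.8 and 96 of them, the single ligand gene with that sign throughout, and did not pass the threshold of 0.01. The values of nlp-90 (K02A6.1) were -0.11, -0.03 and 0.32, a mean of 0.06 ± 0.23 (SD, n = 3) with a 95% interval from limma of -0.83 to 0.95. For nlp-45 (T01B6.4) they were -0.12, 0.05 and -0.19, a mean of -0.09 ± 0.13 (SD, n = 3) with an interval of -0.58 to 0.41. Neither gene differed from 0 by more than the spread between arrays.

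In nlp-51 (T24F1.5) and nlp-48 (C38C10.6) the arrays disagreed in sign. The log ratios of nlp-51 were -0.40, -0.66 and 0.51, with a mean of -0.18 ± 0.61 (SD, n = 3, adjusted p = 0.845 from limma). Those of nlp-48 were -0.23, -1.39 and 0.32, with a mean of -0.43 ± 0.87 (SD, n = 3, adjusted p = 0.53 from limma). Replicate 3 was positive in both genes, and without replicate 2 both means turned to values just above 0, 0.05 for nlp-51 and 0.04 for nlp-48. The 5 ligand genes of mixed sign were these 2 with nlp-45, nlp-81 and nlp-90.

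In the gene table nlp-90 and nlp-91 lie next to each other, the single pair of neighbouring members. Their values in 128Q over 19Q differed in sign of the mean. For nlp-91 (K02A6.2) the log ratios were -0.26, -1.07 and -0.38, with a mean of -0.57 ± 0.44 (SD, n = 3, adjusted p = 0.393 from limma), beside the mean of 0.06 for nlp-90. Neither passed the test, and their difference was not tested.

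Because the scale of the arrays differs, each value was also placed by its percentile among all features of its array. The median percentile of the 25 ligand genes was 14.9 on replicate 1, 5.52 on replicate 2 and 17.3 on replicate 3 of 128Q over 19Q, where 50 would be the middle of the array. The lowest 10% of an array held 7, 20 and 8 of the 25 ligand genes on replicates 1 to 3. Replicate 2 was thus the array on which the ligand genes lay lowest, and it gave the lowest of the 3 values for 18 of 25. Without it the median of the ligand genes was -0.72, and 21 of 25 means stayed below 0. The receptor genes had median percentiles of 37.3, 35.8 and 37.3, and 1, 2 and 2 of the 10 in that range.

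**Figure D2:**
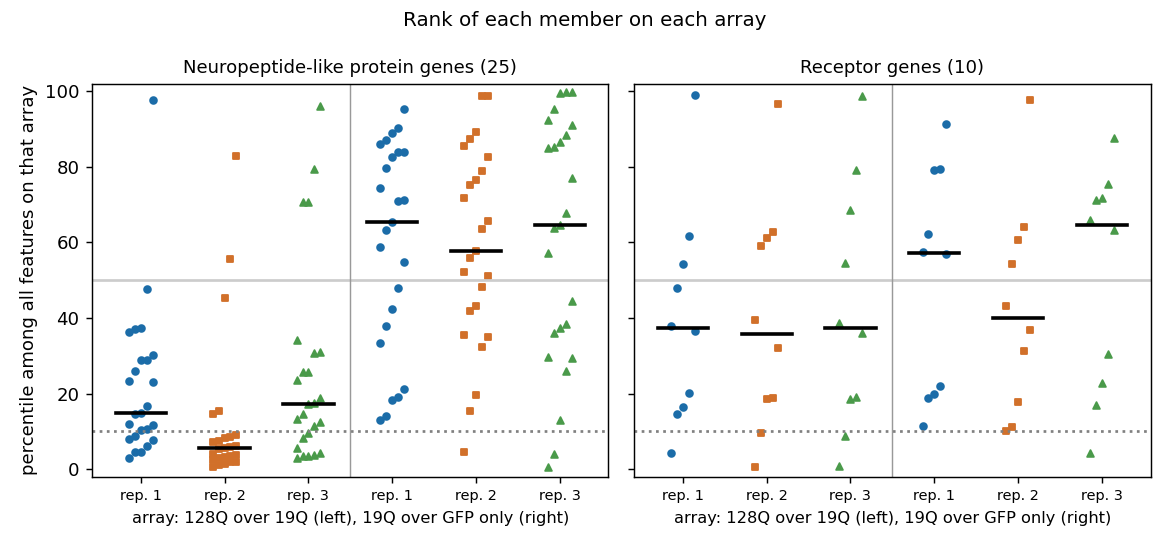
Percentile of each member among all features of its array (y axis) on the 6 arrays (x axis), ligand genes in the left panel and receptor genes in the right panel, with black bars for medians, a grey line at 50 and a dotted line at 10. On replicate 2 of 128Q over 19Q 20 of the 25 ligand genes lie in the lowest 10%, while on the arrays of 19Q over GFP only their medians lie between 57.6 and 65.3.

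Among the receptor genes, 1 rose, 1 fell and 8 did not pass the test. The receptor gene that rose in 128Q cells was npr-39 (F57A8.4), with log ratios of 2.50, 1.53 and 2.22 over 19Q cells. Every array placed it high, at percentiles 98.9, 96.5 and 98.8, and its mean of 2.08 ± 0.50 (SD, n = 3, adjusted p = 0.00476 from limma) was the highest of all 35 members. The receptor gene that fell was npr-41 (B0334.6), with log ratios of -1.52, -2.35 and -2.21. Its percentiles were 4.17, 0.569 and 0.969, and its mean of -2.03 ± 0.44 (SD, n = 3, adjusted p = 0.00995 from limma) was the lowest of all 35 members. The p of npr-41 lay just inside the threshold.

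Neither receptor call held when an array of 128Q over 19Q or replicate 1 of 19Q over GFP only was left out, or in a separate fit of each comparison (adjusted p from limma of 0.0123 for npr-39 and 0.0113 for npr-41), and that of npr-41 was also lost without replicate 2 of 19Q over GFP only. Over the arrays left out in turn, the adjusted p from limma went up to 0.0458 for npr-39 and 0.0774 for npr-41, while the mean stayed between 1.87 and 2.36 for npr-39 and between -2.28 and -1.87 for npr-41. The test rebuilt here after VarMixt, the method of the study, called npr-41 but neither npr-39 nor nlp-79. This rebuilt test is not the study's program. It also called nlp-61 and nlp-69, and the study lists both of these and npr-41 as lower, under their sequence names. It did not call nlp-79 or nlp-56, which are also among the study's calls.

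Of the 8 other receptor genes 3 were below 0 on all 3 arrays. For npr-45 (T01B11.1) the values were -0.62, -0.94 and -0.59, with a mean of -0.72 ± 0.20 (SD, n = 3, adjusted p = 0.1 from limma). Those of npr-40 (Y70D2A.1) were -0.70, -0.08 and -1.05, with a mean of -0.61 ± 0.49 (SD, n = 3, adjusted p = 0.156 from limma). The third was npr-42, with a mean of -0.39 ± 0.25 (SD, n = 3, adjusted p = 0.401 from limma). These means exceeded their SD, but none passed the test.

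The remaining 5 receptor genes, npr-36, npr-37, npr-38, npr-43 and npr-44, had mixed signs and means between -0.30 and 0.19. The log ratios of npr-38 (T10E10.3) were 0.23, -0.17 and 0.51, a mean of 0.19 ± 0.34 (SD, n = 3) with a 95% interval from limma of -0.77 to 1.14. Those of npr-37 (M04G7.3) were -0.09, 0.08 and 0.28, a mean of 0.09 ± 0.19 (SD, n = 3) with an interval of -0.40 to 0.58. These intervals leave room for changes in either direction, so no change was detectable rather than shown to be absent.

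**Figure D3:**
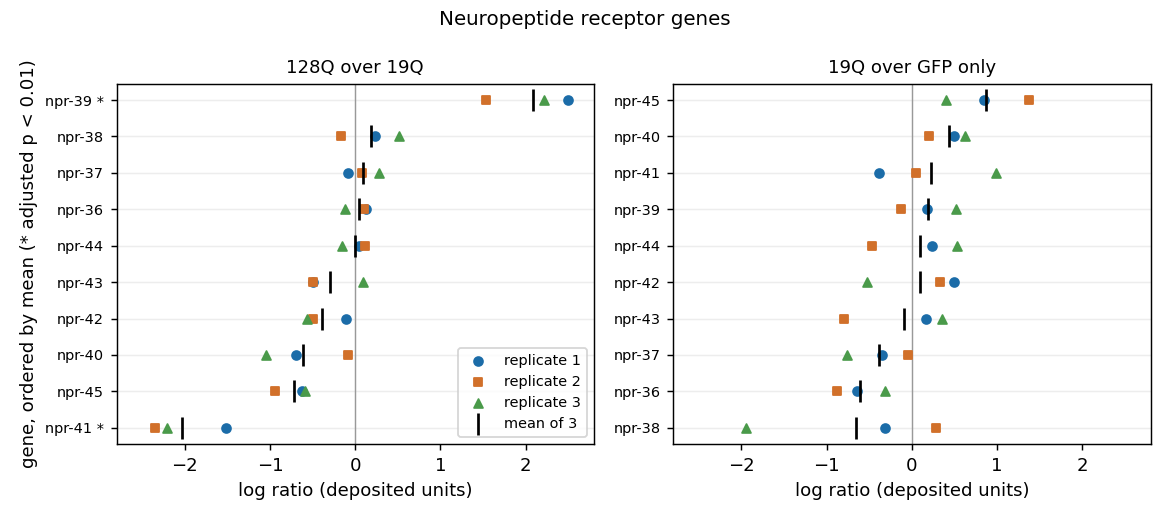
Log ratios (x axes, deposited units) of the 10 neuropeptide receptor genes (rows, ordered by mean in each panel) in 128Q over 19Q on the left and 19Q over GFP only on the right, with a symbol for each of the 3 arrays and a bar for their mean. Asterisks mark npr-39, at a mean of 2.08, and npr-41, at a mean of -2.03, the receptor genes called at an adjusted p under 0.01.

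In 19Q cells relative to GFP-only cells no member was called. With limma 0 of the 35 members and 0% of all 21897 features tested had an adjusted p under 0.01, and the rebuilt test likewise called 0. The study, with its own test, did call genes in this comparison, so the 0 belongs to the tests run here. With no adjustment, 6 ligand genes were above 0 and 0 below at a p under 0.05 in limma, against 14% and 8.03% of all features, and 1 receptor gene was above and 1 below. The lowest adjusted p from limma was 0.134 among the ligand genes and 0.142 among the receptor genes. The ligand genes had a median of 0.30, against 0.09 over all features, and 19 of 25 means were above 0 and 6 below, against 57.7% and 42.3% of all features. On all 3 arrays 9 were above 0 and 1 was below, against 27.3% and 13.3% of all features. With the arrays centred on their medians the ligand median was 0.19 and 18 of 25 means were above 0. Without replicate 3 the median was 0.35, again with 18 of 25 above 0.

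In both ligand genes with the highest means in 19Q cells replicate 3, the array that stood apart, held the highest value. For nlp-62 (F33D11.8) the log ratios of 19Q over GFP only were 0.77, 1.53 and 2.69, with a mean of 1.66 ± 0.97 (SD, n = 3, adjusted p = 0.134 from limma), or 1.15 without replicate 3. For nlp-43 (C45G9.13) they were 0.58, 0.66 and 2.66, with a mean of 1.30 ± 1.18 (SD, n = 3, adjusted p = 0.181 from limma), while replicates 1 and 2 averaged 0.62. On replicate 3 both genes were at percentile 99.8.

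The values of nlp-48 were 0.51, 0.79 and 1.45 in 19Q over GFP only, a mean of 0.91 ± 0.48 (SD, n = 3, adjusted p = 0.199 from limma), or 0.65 without replicate 3. Those of nlp-88 were 1.09, 0.51 and 0.89, a mean of 0.83 ± 0.29 (SD, n = 3, adjusted p = 0.151 from limma), where replicate 1 was the highest array. In nlp-99 (T05A8.3) the values 0.41, -0.11 and 2.33 gave a mean of 0.88 ± 1.29 (SD, n = 3, adjusted p = 0.286 from limma), in which the SD exceeded the mean, and 0.15 without replicate 3.

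**Figure D4:**
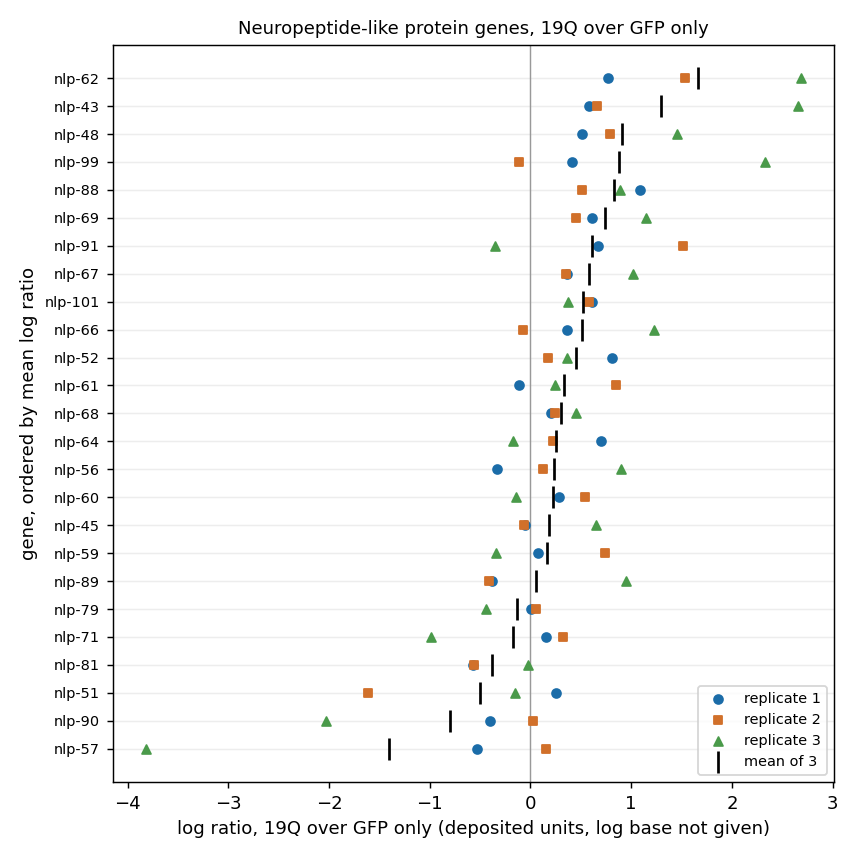
Log ratio of 19Q over GFP only (x axis, deposited units) of each of the 25 neuropeptide-like protein genes (rows, ordered by mean), with a symbol for each of the 3 arrays and a bar for their mean. The means run from -1.40 for nlp-57 to 1.66 for nlp-62, no gene was called, and in several genes replicate 3 lies far from replicates 1 and 2, as in nlp-57 at -3.82.

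At the lower end replicate 3 was again the extreme array of several genes. The log ratios of nlp-57 (F08G12.8) in 19Q over GFP only were -0.53, 0.15 and -3.82, a mean of -1.40 ± 2.13 (SD, n = 3, adjusted p = 0.282 from limma), or -0.19 without replicate 3. Those of nlp-90 were -0.40, 0.03 and -2.03, a mean of -0.80 ± 1.09 (SD, n = 3, adjusted p = 0.262 from limma), or -0.18 without it. For nlp-71 (Y73B6BL.35) they were 0.15, 0.32 and -0.99, a mean of -0.17 ± 0.71 (SD, n = 3), and without replicate 3 the mean was 0.23. In all 3 genes replicate 3 was the lowest array.

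Replicate 2 was the low array of nlp-51, with 0.25, -1.61 and -0.15 and a mean of -0.50 ± 0.98 (SD, n = 3, adjusted p = 0.468 from limma). The values of nlp-81 (Y67D8B.4) were -0.57, -0.56 and -0.02, a mean of -0.38 ± 0.31 (SD, n = 3, adjusted p = 0.436 from limma). It was the single ligand gene below 0 on all 3 arrays of this comparison. Of the 25 ligand genes 15 had a mean no larger than their SD in 19Q over GFP only, against 5 of 25 in 128Q over 19Q.

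The receptor genes in 19Q over GFP only had a median of 0.10, which was -0.02 with the arrays centred and scaled and -0.07 to 0.28 over the arrays left out in turn, and so had no settled direction. Their means ran from -0.66 to 0.87. The highest was npr-45, with 0.85, 1.37 and 0.40 and a mean of 0.87 ± 0.48 (SD, n = 3, adjusted p = 0.142 from limma). For npr-40 the values were 0.50, 0.20 and 0.62, a mean of 0.44 ± 0.22 (SD, n = 3, adjusted p = 0.301 from limma). These were the 2 receptor genes above 0 on all 3 arrays. The values of npr-41 were -0.39, 0.05 and 0.99, a mean of 0.22 ± 0.70 (SD, n = 3) that was -0.17 without replicate 3.

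The lowest receptor genes in 19Q over GFP only were npr-38, npr-36 and npr-37. In npr-38 the values were -0.31, 0.28 and -1.94, with a mean of -0.66 ± 1.15 (SD, n = 3, adjusted p = 0.363 from limma), or -0.02 without replicate 3. For npr-36 (F10D7.1) the log ratios were -0.64, -0.88 and -0.31, with a mean of -0.61 ± 0.28 (SD, n = 3, adjusted p = 0.166 from limma). For npr-37 the log ratios were -0.35, -0.04 and -0.76, with a mean of -0.39 ± 0.36 (SD, n = 3, adjusted p = 0.306 from limma), or -0.20 without replicate 3. On all 3 arrays npr-36 and npr-37 were below 0, and npr-38 was not.

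RNA of 19Q cells stands in the denominator of the first comparison and in the numerator of the second, so the comparisons are not independent and their values are given side by side only. Whether the same extracts were used in both is unknown. The 8 ligand genes that were lower in 128Q over 19Q at an adjusted p under 0.05 had means from -0.13 (nlp-79) to 0.83 (nlp-88) in 19Q over GFP only, with adjusted p values from limma of 0.147 to 0.934. Without replicate 3 of that comparison their means ran from -0.39 (nlp-89) to 0.80 (nlp-88), and those of nlp-79, nlp-56 and nlp-89 changed sign, to 0.03 for nlp-79, -0.10 for nlp-56 and -0.39 for nlp-89. The highest ligand gene of the first comparison, nlp-68, had 0.20, 0.24 and 0.45 in the second, a mean of 0.30 ± 0.13 (SD, n = 3, adjusted p = 0.549 from limma). The called receptor gene npr-39 had 0.18, -0.13 and 0.52, a mean of 0.19 ± 0.32 (SD, n = 3, adjusted p = 0.67 from limma), or 0.02 without replicate 3. For nlp-79, npr-39 and npr-41, the called members, the mean of 19Q over GFP only was smaller than its SD.

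Other genes of peptide signalling were looked up by symbol. Of the enzymes and vesicle proteins that process and store neuropeptides, such as the convertase gene egl-3, 0 have a named probe here. Of other peptide ligands 2 are named, lury-1 and trh-1, and of other peptide receptors 1, frpr-21, and 0 of these 3 reached an adjusted p of 0.01 with limma in either comparison. The log ratios of trh-1, which encodes the precursor of peptides related to thyrotropin-releasing hormone, were -0.95, -1.33 and -0.58 in 128Q over 19Q, all below 0, and averaged -0.96 ± 0.37 (SD, n = 3, adjusted p = 0.0492 from limma). Its mean in 19Q over GFP only was 0.07 ± 0.42 (SD, n = 3, adjusted p = 0.886 from limma). For lury-1, the precursor of luqin-like peptides, the mean of 128Q over 19Q was 0.66 ± 0.41 (SD, n = 3, adjusted p = 0.337 from limma). For frpr-21, of the FMRFamide peptide receptor family, it was 0.55 ± 0.33 (SD, n = 3, adjusted p = 0.297 from limma). Both lay above 0, and the naming of lury-1 and frpr-21 was decided after their values were seen.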

How the data were processed

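The deposited values were treated as scores, log ratios with no stated log base whose array means lay within 0.001 of 0. Per the labels and supplementary methods, RNA was amplified in a linear round, labelled with Cy3 and Cy5, hybridised to dual-colour Agilent arrays with dye swaps and read with GenePix Pro. How background was corrected, values normalized and dye swaps merged is not stated there. Of 22562 probes, 7718 have 1 symbol, 0 several and 14844 none in the platform annotation, and 7691 matched the RefSeq gene table (WBcel235), used for current names and neighbours only. A probe without a symbol is unnamed here.

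Values of probes with the same gene were averaged. A joint limma model (version 3.58.1, R 4.3.3) of the 6 arrays estimated a mean for each comparison. The spread of a feature was shared by both comparisons and moderated by empirical Bayes (prior degrees of freedom 3.03, prior variance 0.185). Features lacking any value in a comparison were left out of it, which left 22033 for 128Q over 19Q and 21897 for 19Q over GFP only, with Benjamini-Hochberg adjustment over all of them. The study's VarMixt was not available as a program, so a mixture of variance classes with a normal test was rebuilt as an alternative. The fit was also run on simulated data with independent normal noise, to check the code only, and no call rests on that run. No test was made over the members as a list.

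Alternatives were a separate fit per comparison, robust moderation (statmod 1.5.0), the rebuilt test, centring, centring with scaling, leaving out 246 evenly spaced low unnamed probes, a threshold of 0.05, 1 probe per gene, 2 of 3 values sufficing, the replicate block, each array left out and, chosen after seeing the data, named genes only. Array values are given for members called at 0.01, or at 0.05 with a constant sign, and for the 5 highest and 5 lowest ligand and 3 highest and 3 lowest receptor genes per comparison. The members and lists were chosen with earlier results of these data known.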

Additional observations from a re-analysis of the deposited data

How the results depend on the processing

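In 128Q over 19Q the calls at an adjusted p under 0.01 were 616 over all features, 1 ligand gene and 2 receptor genes. The rebuilt test gave 969, 2 and 1, and of the 3 members called by limma only npr-41 was among them. A threshold of 0.05 gave 2313 features and 9 ligand genes. Named genes only, chosen after seeing the data, gave 359 and 4. A separate fit gave 0 ligand and 0 receptor genes. Centring with scaling gave 3 ligand genes, and so did leaving out the low probes. The replicate block gave 204 features, 0 ligand and 0 receptor genes, with adjusted p values of 0.0224, 0.0109 and 0.0241 for nlp-79, npr-39 and npr-41. Whether the numbers pair the arrays is not given. Over all features, deviations of same-numbered arrays correlated with r = 0.43, -0.13 and 0.335. Without the evenly spaced low probes r was -0.0432, -0.000476 and 0.00347. The numbers were therefore not taken to pair the arrays. Not every array correlated best with its own number.

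Leaving out each array gave 0 to 1472 features, 0 to 6 ligand and 0 to 2 receptor genes. All counts were 0 when an array of 128Q over 19Q was missing. There were 195, 347 and 1472 features without replicates 1, 2 and 3 of 19Q over GFP only, and the 6 ligand genes came without replicate 3. The receptor median of -0.15 ranged from -0.15 to -0.12, was -0.19 with centring and -0.21 with scaling. In 19Q over GFP only 0 features were called in every setting run. The ligand median of 0.30 was 0.19 with centring and 0.20 with scaling. When an array was left out, 6 of 35 means changed sign in 128Q over 19Q and 11 of 35 in 19Q over GFP only, none of them called in that comparison. In 128Q over 19Q these were nlp-48 (-0.81 to 0.04), nlp-51 (-0.53 to 0.05), nlp-90 (-0.07 to 0.14), npr-36 (-0.01 to 0.11), npr-37 (-0.01 to 0.18) and npr-44 (-0.06 to 0.08). In 19Q over GFP only they were nlp-45 (-0.06 to 0.30), nlp-51 (-0.88 to 0.05), nlp-56 (-0.10 to 0.51), nlp-59 (-0.13 to 0.40), nlp-71 (-0.42 to 0.23), nlp-79 (-0.22 to 0.03), nlp-89 (-0.39 to 0.28), npr-41 (-0.17 to 0.52), npr-42 (-0.10 to 0.41), npr-43 (-0.31 to 0.26) and npr-44 (-0.12 to 0.38). A looser threshold calls more by construction, and elsewhere the cause was not tested.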
